A study of Homo sapiens with 6 samples.

Results

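Axon guidance genes encode the ligands and receptors that steer growing axons and migrating cells, and 66 of them were measured here among 33616 genes. They were chosen by name, as transcript clusters with 1 gene symbol of the semaphorin (19), plexin (9), ephrin (8), EPH receptor (13), SLIT (2), ROBO (4), netrin (6) and UNC5 (4) families, together with DCC. Of several transcript clusters of a gene, the one brightest on average was taken. SEMA3B and SLIT1 shared their clusters with another symbol, and these 2 genes and EPHB2 were not analysed here.

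Semaphorins signal through plexins, with neuropilins as co-receptors for most of the secreted class. Ephrins are bound to the cell membrane and signal into the cell that carries the EPH receptor as well as back into their own cell. SLIT proteins repel through ROBO receptors, whereas netrins attract through DCC and repel when UNC5 receptors take part. In glioma these families are known for their roles in migration, invasion and the growth of blood vessels.

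Messenger RNA was measured in 3 arrays of ATRX KO cells and 3 arrays of ATRX NC cells. Both groups carried CAS9 and were selected with puromycin for 7 days, after which ATRX KO cells received sgRNAs against ATRX and ATRX NC cells, labelled as wild type for ATRX, a non-targeting sgRNA, with an infection of 24 h. The line is a TMZ-resistant derivative of the human GBM line LN229, named LN229R in the design text and LN229 in the sample labels. Whether the edited cells were a clone or a pool, and whether replicates were separate cultures, is not given in the sources used here, so the spread behind each p-value may be that of technical repeats. The values are log2 intensities, which the authors normalized between arrays, with neither detection calls nor background levels beside them. The median level of all genes, 6.10, is used below only to mark dim genes. Array medians over the genes tested ran from 6.03 to 6.17, and arrays correlated at r = 0.990 to 0.992 within a group and 0.980 to 0.981 between groups. The ATRX transcript, target of the sgRNAs, averaged 8.63 ± 0.14 in ATRX KO cells and 10.28 ± 0.18 in ATRX NC cells (SD, n = 3 each). It fell to 31.8% of the ATRX NC level (log2 fold change -1.65, standard error 0.16, adjusted p = 0.000561 from limma).

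In ATRX KO cells, 9 of the 66 guidance genes rose and 7 fell at an adjusted p under 0.05 from limma over all genes, and 50 did not pass. The 16 that passed were 24.2% of the guidance genes, against 9.51% of all genes tested and 13.9% of protein-coding genes, the class of all 66. Among genes above the median level the share was 14 of 38 (36.8%), against 20.3% of protein-coding genes above that level. The risers were EPHA5, PLXND1, SLIT2, SEMA3C, EFNB2, PLXNA2, PLXNA1, UNC5B and SEMA4B, 13.6% against 5.79% of all genes and 8.05% of protein-coding genes. The genes that fell were SEMA6A, SEMA3E, DCC, EFNA5, EPHB3, PLXNB1 and EPHA3, 10.6% against 3.72% and 5.81%. Of the 38 guidance genes above the median level, 8 (21.1%) rose and 6 (15.8%) fell, against 11.5% and 8.87% of protein-coding genes above that level. A change of at least 2-fold was seen in 10 of the 16, with 5 in each direction, or 15.2% against 4.11% of all genes. The median log2 fold change of the 66 genes was 0.06, against 0.07 over all genes, while the median absolute change was 0.36 against 0.24. Levels in ATRX KO and ATRX NC arrays did not overlap for 33 of the 66 genes, against 30.2% of all genes. For 2-fold changes, median absolute change and non-overlap, no background over protein-coding genes was taken. Calls were more frequent in that class than over all genes. The count of genes that fell dropped to 4 without ATRX KO replicate 1, without ATRX KO replicate 3 or without ATRX NC replicate 3. In bulk RNA of this kind, fewer cells with a transcript and less RNA per cell cannot be told apart.

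**Figure D1:**
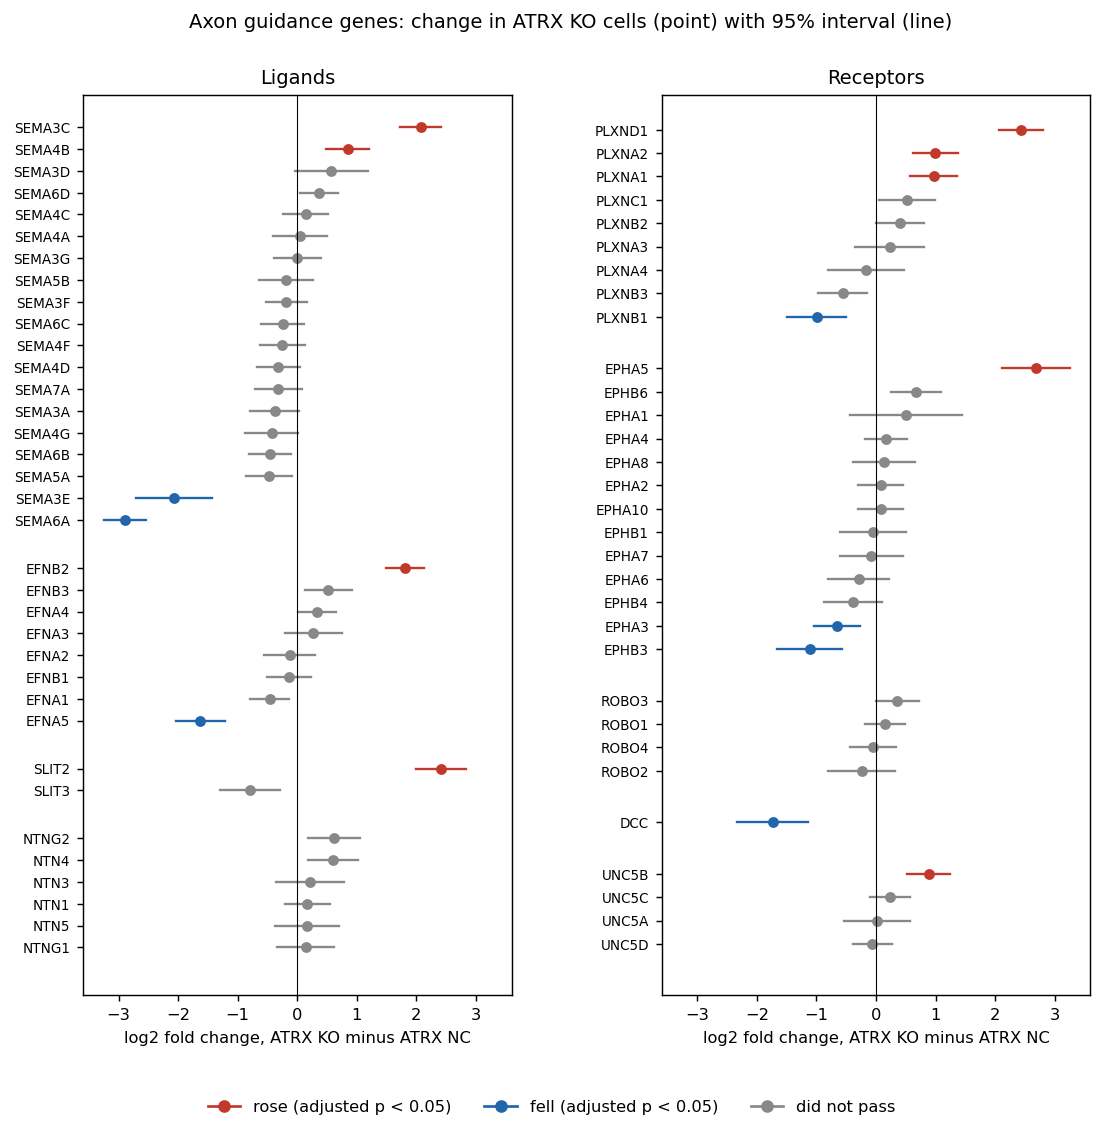
Log2 fold change (ATRX KO minus ATRX NC, x axis) of the 35 ligands (left) and 31 receptors (right), ordered within each family, with 95% intervals from limma as lines. Red genes rose and blue genes fell at an adjusted p under 0.05; grey genes did not pass, and every family of 6 or more genes except the netrins holds both a riser and a faller.

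Ligands and receptors both changed in each direction. Of 35 ligands, SEMA3C, SEMA4B, EFNB2 and SLIT2 rose and SEMA3E, SEMA6A and EFNA5 fell. Of 31 receptors, EPHA5, PLXNA1, PLXNA2, PLXND1 and UNC5B rose and EPHA3, EPHB3, PLXNB1 and DCC fell. In the plot of values by array, all 16 genes were apart in the 2 groups, with every ATRX KO array on one side of every ATRX NC array. These genes were picked by their difference between the same arrays, so this adds no support to the calls.

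**Figure D2:**
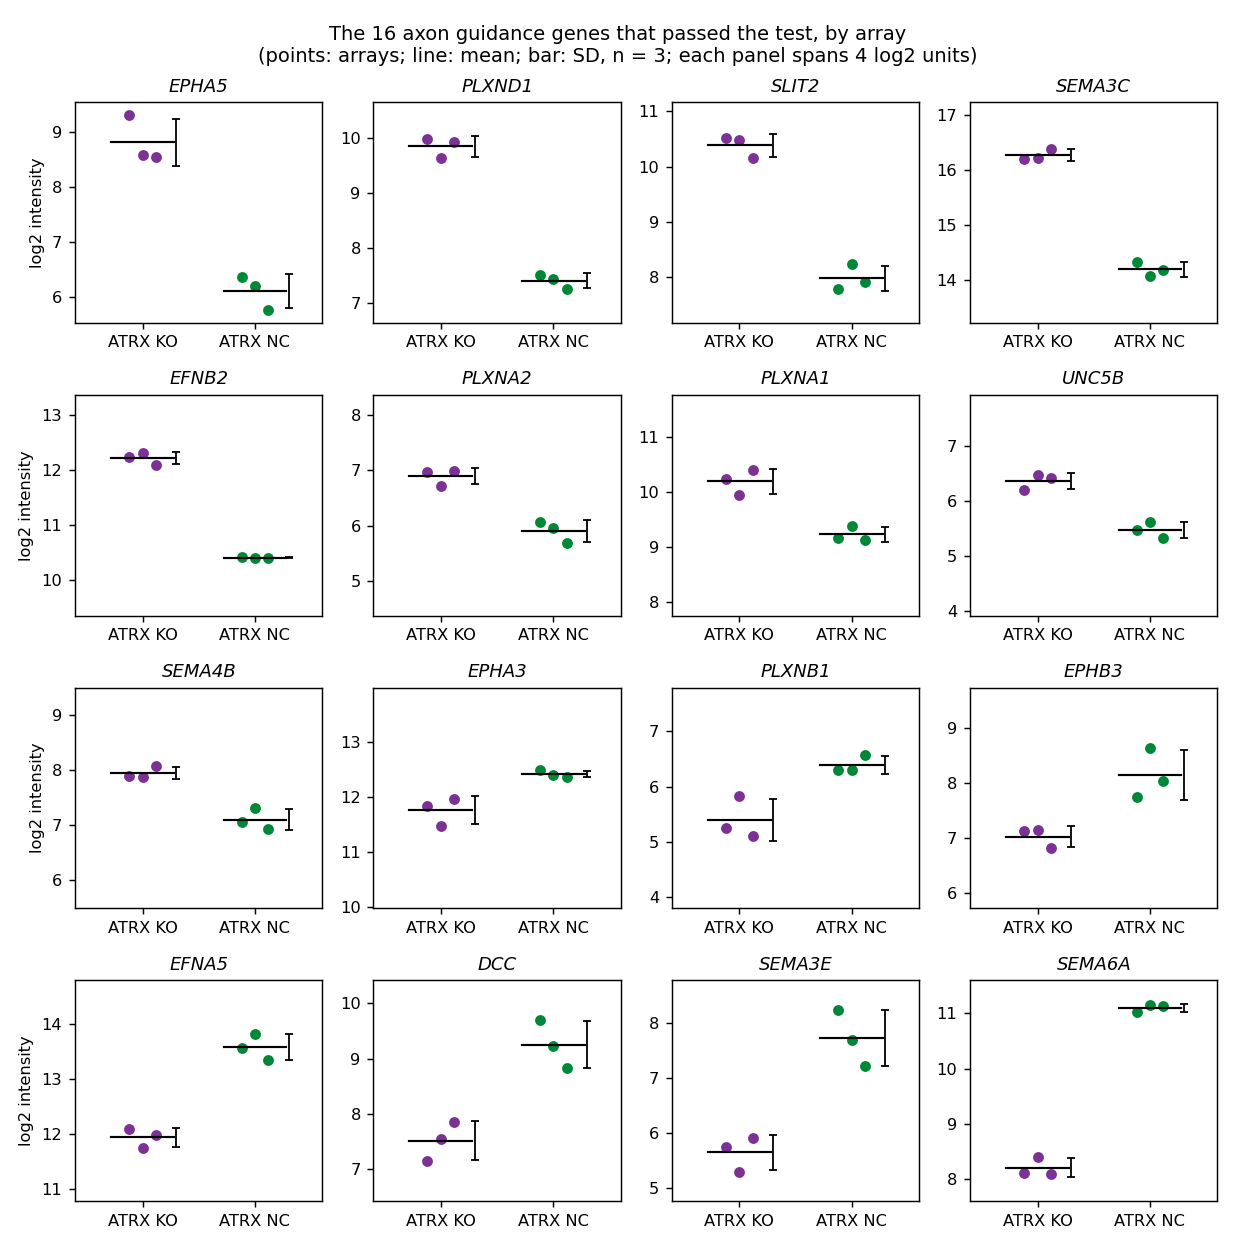
Log2 intensity (y axis) of the 16 guidance genes that passed the test, with ATRX KO arrays at the left and ATRX NC arrays at the right of each panel. Points are arrays, lines are group means and bars are SD (n = 3), and each panel spans 4 log2 units, so that distances compare between panels. EPHA5, at the top left, had the largest rise (2.69) and SEMA6A, at the bottom right, the largest fall (-2.90).

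Stretches of promoter were set side by side for the 3 largest rises and the 3 largest falls that have an entry in the RefSeq promoter table (GRCh38.p14), to show the sequence upstream of genes that moved in opposite directions. SEMA6A and UNC5B have no entry. Each sequence holds the 200 bases before the annotated start, 5′ to 3′ on the strand of the gene. Capitals mark the GC box GGGCGG, the CCAAT box CCAAT, the TATA box TATAAA and the STAT core TTCNNNGAA, searched on both strands. The stretch of EPHA5 is chr4:65670490-65670689 (minus strand), of PLXND1 chr3:129606677-129606876 (minus strand), of SLIT2 chr4:20251705-20251904 (plus strand), of SEMA3E chr7:83649140-83649339 (minus strand), of DCC chr18:52339997-52340196 (plus strand) and of EFNA5 chr5:107670938-107671137 (minus strand).
EPHA5: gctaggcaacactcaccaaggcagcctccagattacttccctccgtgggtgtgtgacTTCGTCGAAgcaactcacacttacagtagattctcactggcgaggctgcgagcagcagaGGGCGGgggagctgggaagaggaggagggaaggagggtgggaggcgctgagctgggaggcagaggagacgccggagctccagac
PLXND1: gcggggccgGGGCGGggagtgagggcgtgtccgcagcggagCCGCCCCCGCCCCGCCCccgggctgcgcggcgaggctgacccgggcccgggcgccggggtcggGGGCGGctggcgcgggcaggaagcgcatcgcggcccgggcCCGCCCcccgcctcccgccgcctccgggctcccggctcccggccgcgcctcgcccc
SLIT2: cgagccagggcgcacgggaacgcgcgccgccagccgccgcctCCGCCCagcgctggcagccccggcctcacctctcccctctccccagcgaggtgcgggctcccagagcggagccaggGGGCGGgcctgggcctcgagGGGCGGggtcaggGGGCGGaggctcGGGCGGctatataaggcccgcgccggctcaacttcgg
SEMA3E: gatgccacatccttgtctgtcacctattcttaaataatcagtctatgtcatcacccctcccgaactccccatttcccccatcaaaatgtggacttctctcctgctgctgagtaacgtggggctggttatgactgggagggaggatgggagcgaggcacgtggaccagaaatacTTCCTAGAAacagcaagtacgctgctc
DCC: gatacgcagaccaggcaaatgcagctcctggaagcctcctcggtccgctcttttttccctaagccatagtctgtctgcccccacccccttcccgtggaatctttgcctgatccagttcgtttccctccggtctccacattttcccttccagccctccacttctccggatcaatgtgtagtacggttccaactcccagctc
EFNA5: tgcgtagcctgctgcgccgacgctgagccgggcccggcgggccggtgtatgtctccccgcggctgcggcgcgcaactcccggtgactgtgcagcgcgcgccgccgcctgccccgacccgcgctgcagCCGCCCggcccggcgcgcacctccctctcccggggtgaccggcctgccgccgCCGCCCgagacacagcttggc

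The stretches of PLXND1, SLIT2 and EFNA5 were rich in CpG, with 35, 25 and 33 CpG dinucleotides, whereas those of EPHA5, DCC and SEMA3E held 9, 8 and 5. A GC box was found in 7 of 8 promoters of genes that rose and in 2 of 6 promoters of genes that fell, against 39 of 56 guidance promoters and 54.4% of promoters of protein-coding genes tested (39.9% of all promoters in the table). The median number of CpG was 25.5 over the genes that rose and 10.5 over the genes that fell, against 15.0 over protein-coding genes. Several genes went against these medians. SEMA3C had 2 CpG and no GC box beside a rise of 2.07, and EPHA5 had 9 CpG beside the largest rise. Among the genes that fell, EFNA5 had 33 CpG and EPHB3 had 18, both with a GC box. With only 8 and 6 promoters, the difference between the sets was not tested. The STAT core was present in 4 of 56 guidance promoters (7.14%), among them EPHA5, EPHA3 and SEMA3E. This compares with 4.67% of promoters of protein-coding genes tested and 5.26% of all promoters. A CCAAT box was in 18 of 56 (32.1%, against 30.6% for protein-coding genes and 28.9% of all promoters). The exact letters TATAAA of the TATA box were in 1 of 56, that of EFNB2 (1.79%, against 7.48% and 8.92%). Variants of these letters were not counted, among them tatataag near the end of the SLIT2 stretch. These matches describe letters in a window of 200 bases and say nothing of a factor bound there.

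Semaphorins moved in opposite directions within a class. SEMA3C, a secreted semaphorin of class 3 that signals through neuropilins and plexins including PLXND1, was at log2 levels of 16.19, 16.22 and 16.39 in ATRX KO arrays, against 14.33, 14.07 and 14.19 in ATRX NC arrays. It rose 4.20-fold (log2 fold change 2.07, standard error 0.15, adjusted p = 0.000127 from limma), and was bright in both groups. SEMA3E, of the same class, is known to bind PLXND1 directly. Its levels were 5.75, 5.30 and 5.91 in ATRX KO arrays and 8.25, 7.70 and 7.23 in ATRX NC arrays, a fall to 23.8% (log2 fold change -2.07, standard error 0.28, adjusted p = 0.00270). In ATRX KO cells every array fell short of that median of 6.10, and no background level is known to set a floor under them.

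The largest fall of the whole group was that of SEMA6A, a transmembrane semaphorin and ligand of PLXNA2 and PLXNA4. Its levels were 8.11, 8.40 and 8.09 in ATRX KO arrays and 11.02, 11.14 and 11.13 in ATRX NC arrays. This is a fall to 13.4% of the level in ATRX NC cells (log2 fold change -2.90, standard error 0.15, adjusted p = 2.5e-05 from limma), with a gap between the groups far wider than the spread within either. SEMA4B, a transmembrane semaphorin of class 4, was at 7.90, 7.87 and 8.08 in ATRX KO arrays and 7.06, 7.31 and 6.94 in ATRX NC arrays. It rose 1.80-fold (adjusted p = 0.0142) and no longer passed without ATRX KO replicate 3 (adjusted p = 0.0599) or ATRX NC replicate 3 (adjusted p = 0.0532).

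The other 15 semaphorins did not pass, with log2 fold changes from -0.48 to 0.57. SEMA3A, the classic growth cone collapsing factor, was bright in both groups, at 12.91, 12.81 and 12.67 in ATRX KO arrays and 13.31, 13.36 and 12.86 in ATRX NC arrays (log2 fold change -0.38, 95% interval -0.79 to 0.03). Its other 2 transcript clusters gave 0.53 and -0.47, neither past the test, so its clusters differed in sign. SEMA5A (-0.48), SEMA6B (-0.46) and SEMA6D (0.36) had an unadjusted p under 0.05 but missed after adjustment (adjusted p = 0.124, 0.106 and 0.161 from limma). SEMA4D, the ligand of PLXNB1, was at -0.32 (adjusted p = 0.272) and at -0.30 by its other cluster. SEMA7A, the GPI-anchored member, was at -0.32 (adjusted p = 0.315).

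SEMA3A, SEMA3C, SEMA3D and SEMA3E lie together on chromosome 7 in the RefSeq annotation. SEMA3E, SEMA3A and SEMA3D follow each other with no protein-coding gene between them, and HGF, CACNA2D1 and PCLO separate SEMA3C from SEMA3E. Within this stretch SEMA3C rose and SEMA3E fell, and SEMA3D was at 0.57 (adjusted p = 0.239 from limma). The 3 genes in between did not pass (0.35, 0.12 and -0.05). EFNA4, EFNA3 and EFNA1 also follow each other, on chromosome 1, and none of them passed. The same holds for ROBO2 and ROBO1 on chromosome 3 and for ROBO3 and ROBO4 on chromosome 11.

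Among the 9 plexins, the receptors of the semaphorins, 3 rose and 1 fell. PLXND1, the receptor of SEMA3E, was at 9.99, 9.64 and 9.92 in ATRX KO arrays and 7.52, 7.45 and 7.26 in ATRX NC arrays, a 5.42-fold rise (log2 fold change 2.44, standard error 0.16, adjusted p = 8.02e-05 from limma). Thus the transcript of PLXND1 was higher, and that of its ligand SEMA3E lower, in all 3 ATRX KO arrays than in any ATRX NC array. PLXNA2, a receptor of SEMA6A, was at 6.97, 6.72 and 7.00 in ATRX KO arrays and 6.06, 5.96 and 5.69 in ATRX NC arrays. It rose 1.99-fold (standard error of the log2 fold change 0.17, adjusted p = 0.00810) while SEMA6A fell, with a mean in ATRX NC cells below the median of all genes. PLXNA4, the other receptor of SEMA6A, was dim in both groups (-0.17, 95% interval -0.80 to 0.47). PLXNA1, which pairs with NRP1 in the response to secreted semaphorins, was at 10.23, 9.94 and 10.40 in ATRX KO arrays and 9.17, 9.38 and 9.13 in ATRX NC arrays, a rise of 0.97 (standard error 0.17, adjusted p = 0.0109).

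PLXNB1, the receptor of SEMA4D, was at 5.24, 5.83 and 5.11 in ATRX KO arrays and 6.30, 6.31 and 6.58 in ATRX NC arrays. It fell by close to 2-fold (95% interval of the log2 fold change -1.49 to -0.51, adjusted p = 0.0240 from limma). Without any array other than ATRX KO replicate 2 it no longer passed (highest adjusted p = 0.0860, without ATRX KO replicate 1). PLXNB3, PLXNC1 and PLXNB2 missed with -0.56, 0.52 and 0.41 (adjusted p = 0.0954, 0.159 and 0.202). Their groups did not overlap either, so that 7 of the 9 plexins were apart between ATRX KO and ATRX NC arrays, beside 30.2% of all genes. That share was not taken over protein-coding genes.

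Ephrins split in the same way, with EFNB2 up and EFNA5 down. EFNB2, a transmembrane ligand of EPHB4, marks arteries. Its levels were 12.23, 12.31 and 12.09 in ATRX KO arrays and 10.42, 10.39 and 10.40 in ATRX NC arrays. It rose 3.50-fold (log2 fold change 1.81, standard error 0.14, adjusted p = 0.000182 from limma). EFNA5, a GPI-anchored ligand of EPHA receptors, was at 12.10, 11.76 and 11.99 in ATRX KO arrays and 13.57, 13.82 and 13.35 in ATRX NC arrays. It fell to 32.3% (log2 fold change -1.63, standard error 0.18, adjusted p = 0.000987), and stayed well above the median level of all genes. Both genes are bright and neither group came near the other. The remaining 6 ephrins did not pass. EFNA1 was at 7.57, 7.51 and 7.65 in ATRX KO arrays and 8.11, 7.92 and 8.09 in ATRX NC arrays (log2 fold change -0.46, adjusted p = 0.0846). It passed after each of 3 other scalings of the arrays (highest adjusted p = 0.0462, with cyclic loess). It missed when any array was dropped (highest adjusted p = 0.201, without ATRX KO replicate 1). EFNB3 (0.52) and EFNA4 (0.33) had an unadjusted p under 0.05 and missed (adjusted p = 0.101 and 0.194).

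Of 13 EPH receptors, the largest family of receptor tyrosine kinases, EPHA5 rose and EPHA3 and EPHB3 fell. EPHA5, one of the receptors of EFNA5, showed the largest rise of the whole group. Its levels were 9.29, 8.57 and 8.55 in ATRX KO arrays and 6.36, 6.21 and 5.77 in ATRX NC arrays, a 6.47-fold difference (log2 fold change 2.69, standard error 0.25, adjusted p = 0.000408 from limma). EPHB3 was at 7.12, 7.14 and 6.81 in ATRX KO arrays and 7.75, 8.64 and 8.03 in ATRX NC arrays. It fell to 46.2% (log2 fold change -1.11, standard error 0.24, adjusted p = 0.0236), a call lost without ATRX NC replicate 3 or any 1 ATRX KO array (highest adjusted p = 0.0879, without ATRX KO replicate 3). EPHA3, another receptor of EFNA5, was at 11.84, 11.48 and 11.97 in ATRX KO arrays and 12.49, 12.41 and 12.37 in ATRX NC arrays. It fell to 63.4% (log2 fold change -0.66, standard error 0.17, adjusted p = 0.0471), just inside the threshold, and missed it when any array was dropped (highest adjusted p = 0.119, without ATRX KO replicate 2).

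The other 10 EPH receptors did not pass, with log2 fold changes from -0.39 to 0.67. EPHB6, which lacks kinase activity, lay just outside the threshold at 0.67 (adjusted p = 0.0573 from limma). Its levels were 6.21, 6.54 and 6.79 in ATRX KO arrays and 5.81, 5.96 and 5.76 in ATRX NC arrays. It passed without ATRX KO replicate 1 (adjusted p = 0.0467). It missed without any other array (highest adjusted p = 0.168, without ATRX KO replicate 3) and after each of 3 other scalings of the arrays. EPHB4, a receptor of EFNB2, was at 8.38, 8.40 and 8.66 in ATRX KO arrays and 9.17, 8.46 and 8.97 in ATRX NC arrays. Its groups overlapped (log2 fold change -0.39, 95% interval -0.87 to 0.09). EPHA2, a receptor often studied in GBM, was at 0.08 (95% interval -0.30 to 0.46), and EPHA4 at 0.16 (95% interval -0.19 to 0.52). The second cluster of EPHA4 gave -0.39 and that of EPHB1 gave -0.70 against -0.06 by its brighter cluster, none past the test.

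**Figure D3:**
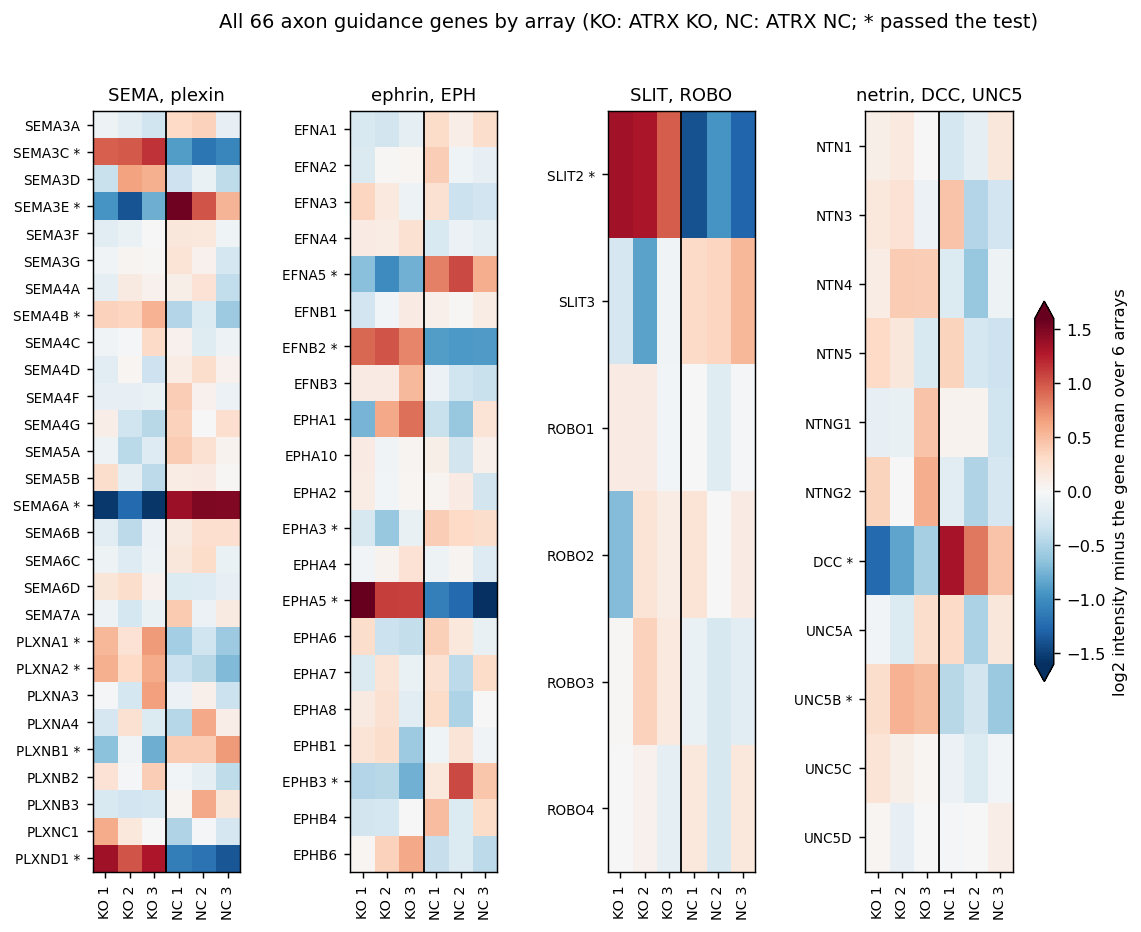
Log2 intensity of each of the 66 guidance genes minus its mean over the 6 arrays (colour scale, in log2 units), by signalling system, with ATRX KO arrays in the 3 left columns of each panel and ATRX NC arrays in the 3 right columns. Stars mark the 16 genes that passed the test. In every system there is a row with red left and blue right columns (among them SEMA3C, PLXND1, EFNB2, EPHA5, SLIT2 and UNC5B), and most rows are pale.

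SLIT2 rose while its receptors did not pass. SLIT2, the secreted ligand of ROBO1 and ROBO2, was at 10.52, 10.48 and 10.15 in ATRX KO arrays and 7.78, 8.23 and 7.91 in ATRX NC arrays. This is a 5.33-fold rise (log2 fold change 2.41, standard error 0.18, adjusted p = 0.000153 from limma), with no overlap between groups. A second, dimmer cluster of SLIT2 stood at 0.15 (standard error 0.53), and the mean over both clusters rose by 1.28 (adjusted p = 0.0401). SLIT3 went the other way without passing, at 6.21, 5.63 and 6.43 in ATRX KO arrays and 6.79, 6.82 and 7.02 in ATRX NC arrays (log2 fold change -0.79, adjusted p = 0.0609). It passed after each of 3 other scalings of the arrays (highest adjusted p = 0.0397, with median centring). When any array was dropped it missed (highest adjusted p = 0.161, without ATRX NC replicate 3). ROBO1 was at 13.13, 13.13 and 12.95 in ATRX KO arrays and 12.99, 12.80 and 12.97 in ATRX NC arrays, with a log2 fold change of 0.15 (95% interval -0.18 to 0.49). The interval leaves room for a change of less than 1.5-fold in either direction and not for one of the size of SLIT2. ROBO2 (-0.24), ROBO3 (0.36) and the endothelial receptor ROBO4 (-0.05) had means under 6.10 in both groups. ROBO3 had an unadjusted p under 0.05 (adjusted p = 0.199).

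The netrin receptors moved apart. DCC, the receptor of attraction and one of the dependence receptors, which favour cell death when their ligand is missing, was at 7.14, 7.54 and 7.86 in ATRX KO arrays and 9.69, 9.22 and 8.84 in ATRX NC arrays. It fell to 30.0% of the ATRX NC level (log2 fold change -1.74, standard error 0.26, adjusted p = 0.00497 from limma). UNC5B, also a dependence receptor, was at 6.20, 6.47 and 6.42 in ATRX KO arrays and 5.48, 5.62 and 5.33 in ATRX NC arrays. It rose by 0.89 (standard error 0.16, adjusted p = 0.0109), near the median level of all genes. UNC5C was bright and did not pass, at 11.39, 11.27 and 11.21 in ATRX KO arrays and 11.08, 10.95 and 11.13 in ATRX NC arrays (log2 fold change 0.23, 95% interval -0.10 to 0.56). UNC5A and UNC5D were dim in both groups (0.01 and -0.06).

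None of the 6 netrins passed the test of limma, and 2 had an unadjusted p under 0.05, against 24.3% of all genes. NTN4, a netrin of basement membranes that binds laminins, was at 10.42, 10.71 and 10.69 in ATRX KO arrays and 10.08, 9.70 and 10.22 in ATRX NC arrays (log2 fold change 0.61, adjusted p = 0.0820 from limma). NTNG2, a GPI-anchored netrin that binds LRRC4, was at 0.62 (adjusted p = 0.0827). The groups did not overlap for either gene. NTN1, the ligand of DCC, was near the median level in both groups, with overlapping values of 6.04, 6.11 and 5.96 in ATRX KO arrays and 5.67, 5.80 and 6.13 in ATRX NC arrays (0.17, 95% interval -0.21 to 0.55). NTN3, NTN5 and NTNG1 were at 0.21, 0.17 and 0.14.

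**Figure D4:**
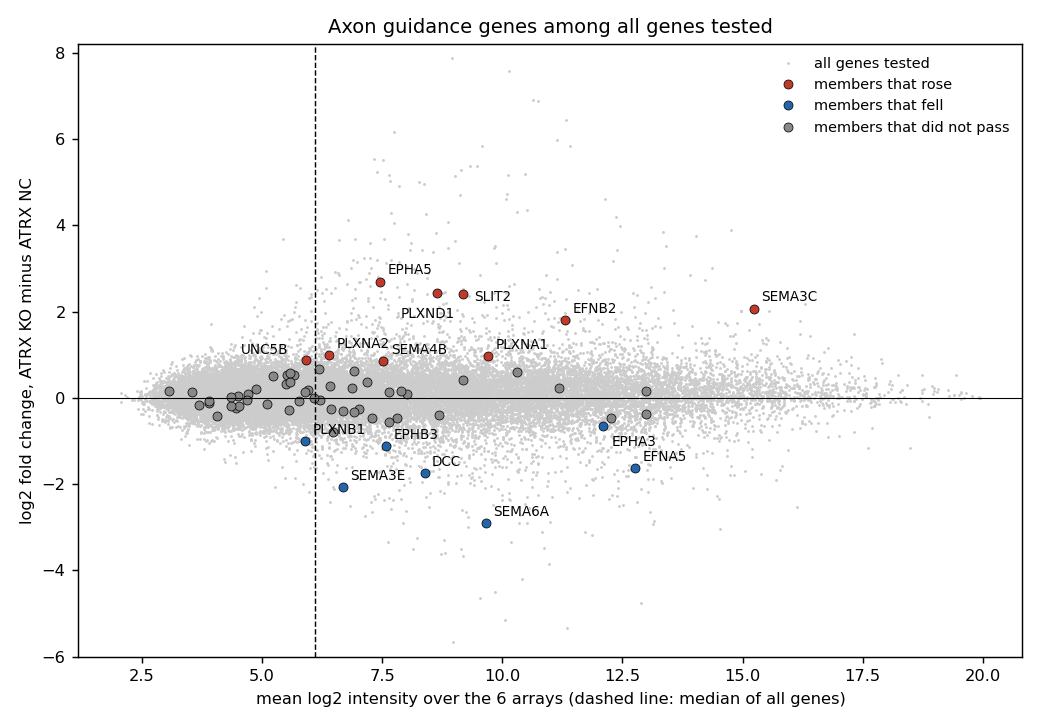
Mean log2 intensity over the 6 arrays (x axis) against log2 fold change, ATRX KO minus ATRX NC (y axis), for all 33616 genes (small grey points) and the 66 guidance genes (large points). Red genes rose, blue genes fell and dark grey genes did not pass, and 14 of the 16 that passed lie right of the median level of all genes (dashed line), PLXNB1 and UNC5B left of it.

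Of the 38 guidance genes above the median level, 14 passed, and of the 28 at or below it, PLXNB1 and UNC5B did. Calls lay mostly above that level over all genes as well, with 2802 of the 3198 genes called. For PLXNA2, PLXNB1, SEMA3E and UNC5B the mean of 1 group was below the median level. The guidance genes were also long, with a median genomic span of 54.7 kb in RefSeq against 26.0 kb for protein-coding genes tested. The median was 285.9 kb over the genes that fell, 90.3 kb over those that rose and 37.1 kb over those that did not pass. Spans overlapped between these sets, as EPHB3 (20.6 kb) fell, SLIT2 (368.7 kb) rose and ROBO2 (1743.3 kb) did not pass. The part of gene length in these calls was not tested.

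Co-receptors and other cues of the same pathways, from a list of 22 genes, gave 5 that rose and 4 that fell. This is 40.9% called, against 9.51% of all genes and 13.9% of protein-coding genes, with a median of 0.00 against 0.07. Above the median level 7 of 15 were called, against 20.3% of protein-coding genes above that level. NRP1, the co-receptor of SEMA3A and SEMA3C, was at 14.21, 14.43 and 14.46 in ATRX KO arrays and 11.86, 11.59 and 11.95 in ATRX NC arrays, a rise of 2.57 (standard error 0.16, adjusted p = 6.72e-05 from limma). NRP2, bright in both groups, was at -0.25 and did not pass. NRCAM, an adhesion protein that joins neuropilins in semaphorin signaling, fell by 3.86 (standard error 0.16). FLRT3, which binds UNC5 receptors and ROBO1, fell by 1.28 (standard error 0.17), and CDON, a surface protein that also binds hedgehog ligands, fell by 0.98. RGMA, the ligand of neogenin, fell by 0.70, with an adjusted p of 0.0492 from limma, close to the threshold. Integrin beta 1, ITGB1, a receptor of SEMA7A, rose by 0.94, VASN by 1.21, the heparan sulfate proteoglycan gene GPC1 by 0.88 and L1CAM by 0.79. The netrin and RGM receptor gene NEO1 was at 0.54 (adjusted p = 0.143).

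Cytoplasmic effectors of guidance receptors, 50 measured of 56 listed, gave 9 that rose and 7 that fell. This is 32.0%, against 9.51% of all genes and 13.9% of protein-coding genes, with a median of -0.02 against 0.07. Most effectors were bright, and above the median level 16 of 44 were called, against 20.3% of protein-coding genes above that level. ABLIM3 (2.64), DPYSL3 (2.15), MICAL2 (1.75), LIMK1 (1.31), LIMK2 (0.93) and ABL2 (0.83) were among those that rose. DPYSL3 encodes a collapsin response mediator, and the LIM kinases phosphorylate cofilin, which severs actin. MICAL3 (-2.07), CHN1 (-1.80), ROCK2 (-1.59), SRGAP1 (-1.42), ABLIM1 (-1.21) and FARP2 (-0.71) were among those that fell. SRGAP1 encodes a GTPase activating protein of SLIT and ROBO signaling, and CHN1 encodes a Rac regulator downstream of EPH receptors. RHOA (0.14), RAC1 (-0.02) and cofilin, CFL1 (0.34), did not pass, whereas CDC42 rose by 0.66 (adjusted p = 0.0227 from limma).

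Among markers of cell identity, fibroblast markers and some glioma and glial markers differed between the same groups. Over all genes tested, 5.79% rose and 3.72% fell. Of 10 fibroblast markers, several of which GBM cells in culture also express, 6 rose and none fell. The markers that rose were POSTN (7.88), FAP (5.19), LUM (3.52), TAGLN (3.14), DCN (2.28) and PDGFRB (1.84). The summed linear intensity of all 10, of which LUM made up more than any other gene in each array, ran from 48684 to 67197 in ATRX KO arrays and from 5143 to 5393 in ATRX NC arrays. COL1A2, THY1, ACTA2 and COL1A1 did not pass (0.68, 0.48, -0.09 and -0.31). Of 10 glioma and glial markers, PTPRZ1 (-3.17), S100B (-2.93), PDGFRA (-1.06) and NES (-1.02) fell and SOX9 rose (adjusted p = 0.0342 from limma). The sum of this list, most of it from VIM in every array, ran from 164686 to 174207 in ATRX KO arrays and from 185406 to 212423 in ATRX NC arrays. VIM, CD44 and SOX2, which GBM lines express, were bright in both groups, whereas GFAP and OLIG2 stayed under 6.10 in both. Of 9 neuronal markers only MAP2 passed (-1.57), of 6 endothelial markers only PECAM1 (1.52), of 6 epithelial markers only KRT19 (0.74), and of 5 immune markers none by limma. The shares of the first 3 lists were 11.1%, 16.7% and 16.7%, beside 9.51% of all genes. An unadjusted p under 0.05 was found for 3 neuronal, 2 endothelial, 4 epithelial and 2 immune markers, against 24.3% of all genes. The part of these shifts in the changes of guidance genes was not tested.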

How the data were processed

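RNA of 6 arrays, 3 of ATRX KO and 3 of ATRX NC cells grouped by their titles, was biotin labelled and hybridised in 1 colour. The authors deposited log2 intensities of 135748 probe sets (transcript clusters), which their methods describe as quantile normalized with limma. Probe summary and background correction: not given in the sources used here. Agilent arrays are named in the methods, whereas the identifiers and the labelling kit are of Affymetrix type. Quantile scaling removes shifts common to all genes. Arrays have no read depth, so their number limits the precision.

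Of the probe sets, 36176 carried 1 symbol, 1119 several and 98453 none in the platform annotation. Symbols were updated by Entrez number to RefSeq (GRCh38.p14, 25516 matched); no guidance gene changed symbol. The files name no build for gene positions, so gene coordinates are given only for promoter sequences, from RefSeq. ATRX KO was compared with ATRX NC by lmFit and eBayes of limma 3.58.1 (R 4.3.3) over 33616 genes without further scaling, with Benjamini-Hochberg adjustment at 0.05. The script was tested on simulated data with known changes. A replicate number did not pair samples: deviations of same-numbered arrays correlated at -0.02, -0.04 and -0.00. Alternatives were 3 scalings, a filter at the median level, protein-coding genes alone, the mean over probe sets, all probe sets, a replicate block, a robust fit with variance trend (statmod 1.5.0), the methods' t-test before and after adjustment, and the loss of each array in turn. Members, gene lists, motifs and alternatives were chosen with earlier results of these data known. Genes named are all guidance genes with an unadjusted p under 0.05, bright partners of these, up to 6 genes in each direction of each companion list with the smallest p, and markers that passed or define their list. Other guidance genes that did not pass (PLXNA4, UNC5A, UNC5D, ROBO2, ROBO4, NTN3, NTN5 and NTNG1 among them), and LIMK2, RHOA, RAC1, CFL1 and NRP2, were named after their values were seen, to account for their families or lists.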

Additional observations from a re-analysis of the deposited data

How the results depend on the processing

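Of the 16 guidance genes called, 9 passed under every one of the alternatives that tested them, and 12 passed without any 1 array. No gene that passed, and none of 14 that had an unadjusted p under 0.05 and missed, changed direction. Without 1 array, the genes that rose numbered 8 to 11, those that fell 4 to 5 and those changed at least 2-fold 9 to 12, and the ATRX transcript was at -1.72 to -1.55. Where fewer genes were tested, counts grew in both directions. Above the median level 12 rose and 11 fell, and over protein-coding genes alone 13 rose and 11 fell. The methods' t-test gave 17 up and 12 down before adjustment and 3 down after it, and of these 3 only 2 were among the 7 called by limma. By this t-test after adjustment, DCC (adjusted p = 0.0699), SEMA3E (0.0579), PLXNA1 (0.0533), EPHA3, EPHB3 and PLXNB1 were lost. The cause was not tested. With the replicate number as a block, 9 genes rose and 5 fell, with EPHA3 (adjusted p = 0.0901 from limma) and PLXNB1 (0.0535) lost. Over all genes the share of calls that rose was 60.9% in the deposited values and 48.7%, 47.7% and 49.2% after quantile normalization, median centring and cyclic loess, whereas the same 9 guidance genes rose under each, with 9 that fell. Of all genes, 1947 rose and 1251 fell, against 3207 and 1934 with the robust fit, 1255 and 804 with the block, and 4650 and 2775 by the unadjusted t-test (1224 and 771 adjusted).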
